A study of Arabidopsis thaliana with 9 samples.

Results

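The shoot transcriptome of the ascorbate-deficient mutant *vtc3-3* was compared with that of the wild type. The comparison used the 3 *vtc3-3* libraries and the 3 wild-type libraries of a series of 9, and all 28642 genes of the deposited table were eligible. The wild type was *Arabidopsis thaliana* ecotype Col-0. *vtc3-3* is a single T-DNA line (SALK_095743) in the same species, with the insertion in exon 7 of *VTC3* per the study's text, and no second allele or complemented line is among the libraries analysed here. In TAIR10.1, exon 7 of this gene is chr2:17054944-17055493 on the minus strand. All seedlings were 2 weeks old, had grown on half-strength MS medium with sucrose, and had spent 2 d in darkness and 6 h in light of 100 µmol photons per square metre and second before the shoots were taken. The other 3 libraries, from the T-DNA line *vtc2-4*, had the same treatment and were used here for the estimate of spread and for a direct comparison between the mutants. The study's methods call the replicates biological and describe a replicate of plate-grown plants as pooled shoots of at least 10 plants. The labels do not say whether the replicates were grown apart, so the p-values measure the spread between these samples.

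Ascorbate (vitamin C) is made in plants from mannose and galactose sugars, and the GDP-L-galactose phosphorylases VTC2 and VTC5 catalyse its controlling step. VTC3 is an unusual protein that joins a protein kinase domain to a PP2C-type phosphatase domain. Plants with low ascorbate are known for altered pathogen and abscisic acid responses, and seedlings returned to light after darkness also switch from starvation-type gene expression to sugar and nitrate assimilation. These pathways were therefore described gene by gene. The lists and their members were chosen with earlier results of these data known. The share of called members in a list is thus a description and gives no support by itself.

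Wild-type replicate 1 stood apart from all the other libraries, so the comparison was made with and without it. Across the genes tested, the median absolute difference in log2 CPM (reads scaled to the library size, on a log2 scale) between wild-type replicates 1 and 2 was 0.580, whereas it was 0.138 between wild-type replicates 2 and 3. Between pairs of *vtc3-3* libraries it was 0.134 to 0.146. Gene reads numbered 5070225 to 5853283 across the wild type, compared with 4399733 to 7567492 in *vtc3-3*, replicate 3 of which was the shallowest. Wild-type replicate 1 also had 1.62% of its reads in introns, compared with 1.12% to 1.19% in the other 5 libraries. The 5 green shoot markers (*RBCS1A*, *RCA*, *LHCB2.1*, *GAPA*, and *PSBO1*) were abundant in each library, with a summed normalized count of 55480 in wild-type replicate 1, 122200 to 123300 in the other wild-type libraries, and 118200 to 124400 in *vtc3-3*. Normalized counts are reads scaled to a common effective library size. Of 9 root markers, 7 had at most 3 reads in every library and *COBL9*, *EXPA7*, and *IRT1* had none, while the beta-glucosidase gene *PYK10* gave nearly all of the root sum of 691 to 735 across the wild type, compared with 788 to 948 in *vtc3-3*.

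Genes were tested with edgeR's quasi-likelihood test, and a gene was called at an adjusted p under 0.05 over all genes. With all 9 libraries 17388 genes were tested and 4 were called, which is 0.023% of them. Without wild-type replicate 1, 17631 genes were tested and 120 were called, or 0.681%. Of these, 51 were higher in *vtc3-3* (0.289%) and 69 were lower (0.391%). These fits are called the 9-library and the 8-library comparison here. An unadjusted p under 0.05 was reached by 1084 of 17388 genes in the 9-library and by 1563 of 17631 in the 8-library comparison. The 4 genes of the 9-library comparison, *CuAO1*, *MRD1*, AT1G67105, and *VTC3*, were all called in the 8-library comparison. All other calls against the wild type by this test were made only without wild-type replicate 1. Where no comparison is named, a log2 fold change against the wild type is from the 8-library comparison. In bulk shoots a change in the share of cells and a change of RNA per cell cannot be told apart.

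The larger set was only partly visible once wild-type replicate 1 was included. Of the 51 higher genes, 49 could be tested with 9 libraries, 47 of these had the same sign, 35 had an unadjusted p under 0.05, and 1 was called. For the 69 lower genes the numbers were 69, 68, 45, and 3. The *vtc3-3* libraries did not overlap any of the 3 wild-type libraries for 33 of the 51 and 43 of the 69, whereas 12.1% of all tested genes showed no overlap. The genes were called for their separation from wild-type replicates 2 and 3, so the choice itself favours these counts. In wild-type replicate 1, 13 of the 51 genes exceeded the mean of *vtc3-3* and 21 of the 69 lay below it. The rises were generally larger and on scarcer transcripts than the falls. Their median was 0.90 on the log2 scale, with 23 genes above 2-fold and a median normalized count of 153 in *vtc3-3*, compared with 0.49, 6 genes, and 434 for the falls.

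The targeted gene was examined first. *VTC3* (AT2G40860, chr2:17053568-17057182 in the deposited coordinates) had normalized counts of 81.4, 114, and 115 in wild-type replicates 1, 2, and 3 and 26.0, 23.5, and 16.6 in *vtc3-3* replicates 1, 2, and 3, the order kept in all triplets of values. No *vtc3-3* library came near the wild type, and all 3 retained reads. On the log2 scale *VTC3* fell by 2.32 (SE, the standard error, 0.175, adjusted p = 2.3e-07, edgeR) in the 8-library comparison and had a log2 fold change of −2.19 (adjusted p = 0.0054, edgeR) in the 9-library comparison. Counts per gene do not show on which side of the insertion the remaining reads lie.

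A neighbouring gene had no reads in the mutant. *PI4KG1* (AT2G40850, chr2:17051123-17053292), annotated as a phosphoinositide 4-kinase gamma gene, lies 276 bases from *VTC3* on the opposite strand, so that the 3′ ends of both genes face each other. It had 14, 15, and 25 reads across the wild type, compared with 0, 0, and 0 in *vtc3-3*. With 3 reads over the 3 *vtc3-3* libraries as the detection limit, the decrease was at least 18.7-fold against all wild-type libraries and at least 20.9-fold against replicates 2 and 3. It passed the threshold without that library (adjusted p = 4.0e-04, edgeR) and not with it (adjusted p = 0.085, edgeR). In TAIR10.1 both genes overlap by 257 bases at their ends, and the library kit does not mark strand, so reads in that stretch cannot be assigned to one of them. Among the 10 tested genes on each side of *VTC3*, the 19 others had adjusted p-values of 0.23 or more in the 8-library and 0.63 or more in the 9-library comparison (edgeR). With 8 libraries their log2 fold changes ran from −0.38 for the ethylene receptor gene *ERS1* to 0.38 for *UMAMIT11*. *CYSA*, 220 bases from the other end of *VTC3*, had a log2 fold change of −0.05 (adjusted p = 0.95, edgeR).

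**Figure D1:**
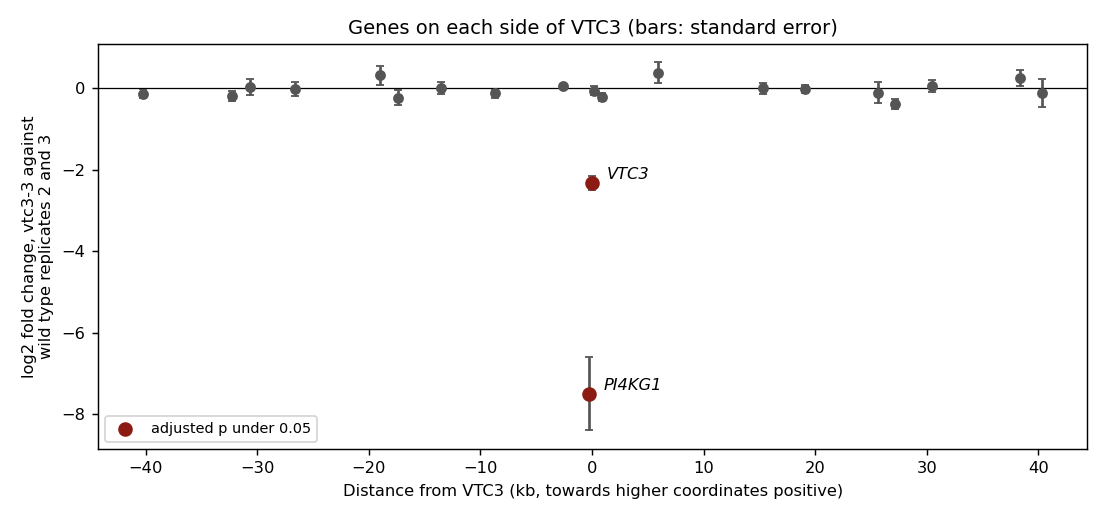
The log2 fold change of *VTC3* and of the 10 tested genes on each side of it in the 8-library comparison is plotted against the distance from *VTC3* in kb, with SEs as bars. Red points mark an adjusted p under 0.05, reached by *VTC3* and *PI4KG1*, while the other 19 genes lie between −0.38 and 0.38.

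Genes of ascorbate metabolism were measured at high depth and showed small differences. *VTC2*, the main GDP-L-galactose phosphorylase gene, had normalized counts of 3086 in wild-type replicate 1, 4685 ± 8.34 (SD, *n*=2) in the other wild-type libraries, and 4176 ± 49.8 (SD, *n*=3) in *vtc3-3*. The difference on the log2 scale was −0.17 (SE 0.0538, adjusted p = 0.26, edgeR) in the 8-library comparison and 0.01 in the 9-library comparison. *VTC5*, the minor paralog, had −0.02 (SE 0.101, adjusted p = 0.99, edgeR) and −0.19, respectively. Of 20 tested genes of ascorbate synthesis and recycling, 16 were lower and 4 higher with 8 libraries, and none was called in either comparison with edgeR's quasi-likelihood test, DESeq2, or the exact test. Unadjusted p-values under 0.05 were found for 4 of them with 8 libraries and for 1 with 9, all lower. With 8 libraries 4.49% of all genes were lower at that level. The list median of −0.05 compares with 0.01 over all genes tested. The extremes were *DHAR2*, a dehydroascorbate reductase gene, at −0.37 (adjusted p = 0.29, edgeR) and *PMI1*, the phosphomannose isomerase gene that opens the pathway, at 0.08 (adjusted p = 0.84, edgeR).

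Both other falls of the 9-library comparison were near-complete. *MRD1* (AT1G53480, chr1:19963047-19964712), named for its low expression in a methionine over-accumulating mutant, had normalized counts of 227, 185, and 192 across the wild type, compared with 1.58, 10.6, and 8.28 in *vtc3-3*. It fell by 4.94 on the log2 scale (SE 0.256, adjusted p = 8.2e-10, edgeR), and its log2 fold change was −5.01 (adjusted p = 0.0013, edgeR) with all libraries. Few of its reads mapped uniquely, with 31, 17, and 17 across the wild type, compared with 1, 3, and 1 in *vtc3-3*, and AT1G53490 overlaps it by 1446 bases on the other strand. AT1G67105 (chr1:25057479-25058264), a non-coding RNA gene, had 88, 51, and 65 reads across the wild type, compared with 6, 2, and 0 in *vtc3-3*. Its log2 fold change was −4.47 (SE 0.394, adjusted p = 2.0e-06, edgeR) with 8 and −4.70 (adjusted p = 0.0054, edgeR) with 9 libraries. Both genes differed between the mutants. The log2 difference of *vtc3-3* from *vtc2-4* was −4.79 for *MRD1* (adjusted p = 1.8e-10, edgeR) and −1.82 for AT1G67105 (adjusted p = 0.036, edgeR), whose mean normalized count was 10.2 in *vtc2-4*.

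The one rise of the 9-library comparison was in amine metabolism. *CuAO1* (AT1G62810, chr1:23257726-23261966) encodes a copper amine oxidase, an enzyme class that breaks down polyamines and releases hydrogen peroxide. Normalized counts were 53.2, 33.6, and 43.8 across the wild type, compared with 143, 146, and 153 in *vtc3-3*. The groups were far apart and the *vtc3-3* libraries lay close together. The log2 fold change was 1.91 (SE 0.153, adjusted p = 4.8e-07, edgeR) without and 1.75 (adjusted p = 0.0054, edgeR) with wild-type replicate 1. Of 12 amine oxidase genes tested, 6 were higher and 6 lower in the 8-library comparison, with *CuAO1* and AT4G12290 called, where 0.681% of all genes were called. AT4G12290, a further copper amine oxidase gene, had normalized counts of 784 ± 19.9 (SD, *n*=2) in wild-type replicates 2 and 3 and 535 ± 69.2 (SD, *n*=3) in *vtc3-3*, and it fell by 0.54 on the log2 scale (SE 0.0848, adjusted p = 0.0038, edgeR). Its value in wild-type replicate 1 was below each *vtc3-3* library, at 308 reads compared with 330 to 732, and the 9-library log2 fold change was −0.24 (adjusted p = 0.71, edgeR).

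**Figure D2:**
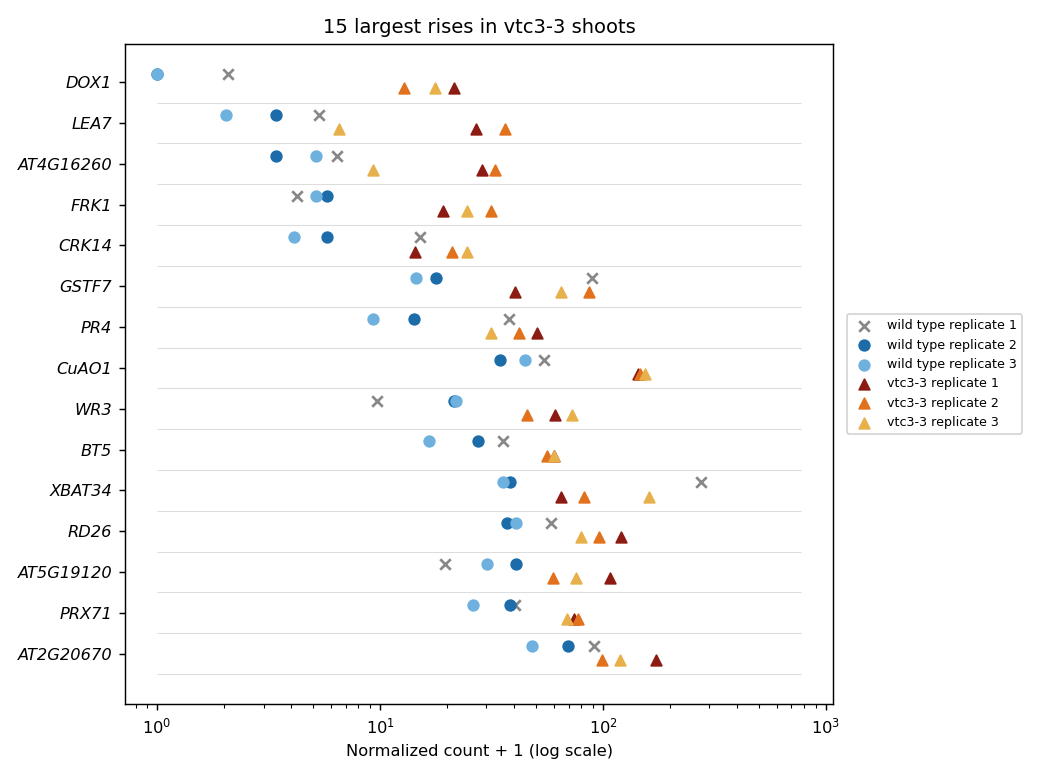
Normalized counts plus 1 (log scale) of the 15 genes with the largest rises in the 8-library comparison are plotted for each wild-type and *vtc3-3* library. Every *vtc3-3* point lies above wild-type replicates 2 and 3, while wild-type replicate 1 lies within the *vtc3-3* range for *CRK14* and *PR4* and above it for *GSTF7* and *XBAT34*.

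Genes of secreted defence proteins were described next. Of 24 listed hydrolase, peroxidase, and defensin genes, 12 passed the low-count filter, and *DOX1*, *OSM34*, AT4G16260, and *PR3* did so with only 0 to 7 reads in each wild-type library. Such genes enter the test because they are higher in a mutant, and they raise the list mean as well. Counts, medians, and means over the tested members of a list are therefore descriptions and give no support by themselves. With 8 libraries 5 of the 12 rose and none fell, where 0.289% of all genes rose, and the median log2 fold change was 1.21. With 9 libraries 10 were tested with a median of 0.96, and edgeR's quasi-likelihood test called none (5 had an unadjusted p under 0.05, all higher), DESeq2 called 2, and the exact test called 3. In the same comparison limma with library quality weights called 5, all higher, where it called 113 of all 17388 genes. Measured as mean log2 CPM above wild-type replicates 2 and 3, the list stood at 1.36, 1.31, and 1.17 in *vtc3-3* replicates 1, 2, and 3, at 0.25 in wild-type replicate 1, and at 1.15, 0.26, and 0.31 in *vtc2-4*. Single members varied more between the *vtc3-3* libraries than this mean, with a median SD of 0.387 in log2 CPM compared with 0.122 over all genes tested, and 4 of the 12 were highest in each replicate.

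*DOX1* (AT3G01420, chr3:159466-162837) encodes an alpha-dioxygenase that oxidises fatty acids during defence. It had 1, 0, and 0 reads across the wild type, compared with 26, 10, and 12 in *vtc3-3*. This was at least 9.72-fold more than wild-type replicates 2 and 3 when 3 reads over both are taken as the limit. The adjusted p was 0.027 with 8 and 0.63 with 9 libraries (edgeR). The pathogenesis-related gene *PR4* (AT3G04720, chr3:1285524-1286562), for a chitin-binding protein, had normalized counts of 36.9, 13.2, and 8.34 across the wild type, compared with 49.7, 41.2, and 30.4 in *vtc3-3*. Wild-type replicate 1 thus lay within the mutant's range. *PR4* rose by 1.96 on the log2 scale (SE 0.344, adjusted p = 0.0079, edgeR), and the value was 1.07 (adjusted p = 0.63, edgeR) with that library.

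The peroxidase gene *PRX71* (AT5G64120, chr5:25659306-25661002) showed little spread in the mutant. Its normalized count was 39.1 in wild-type replicate 1, 31.1 ± 8.63 (SD, *n*=2) in the others, and 72.5 ± 4.48 (SD, *n*=3) in *vtc3-3*, a rise of 1.24 (SE 0.211, adjusted p = 0.0064, edgeR). A chitinase family gene, AT2G43620 (chr2:18093770-18095025), rose by 1.18 (SE 0.217, adjusted p = 0.011, edgeR), from 46.0 ± 5.67 (SD, *n*=2) to 106 ± 8.02 (SD, *n*=3). With 9 libraries *PRX71* and AT2G43620 had log2 fold changes of 1.105 and 1.38 (adjusted p = 0.42 and 0.55, edgeR). AT4G16260, a glycosyl hydrolase gene described as a glucanase, differed in that *vtc3-3* replicate 3 stood near the wild type. Its reads were 5, 2, and 4 across the wild type, compared with 35, 27, and 6 in *vtc3-3* (log2 fold change 2.77, SE 0.605, adjusted p = 0.038, edgeR). It did not pass the low-count filter with 9 libraries, nor without *vtc3-3* replicate 1 or 2.

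Receptor-like kinases and related genes of pathogen perception passed the test singly. *FRK1* (AT2G19190, chr2:8326049-8329944), a kinase gene widely used as a marker of flagellin perception, had normalized counts of 3.26, 4.80, and 4.17 across the wild type, compared with 18.2, 30.6, and 23.5 in *vtc3-3*. It rose by 2.36 on the log2 scale (SE 0.532, adjusted p = 0.042, edgeR) without wild-type replicate 1 and gave 2.51 (adjusted p = 0.63, edgeR) with it, and it lost its call without *vtc3-3* replicate 2 (adjusted p = 0.15) or 3 (adjusted p = 0.077, edgeR). *FRK1* was the 1 called gene of 13 tested for pattern-triggered immunity, where 0.289% of all genes rose. This list had a median of 0.06, with 8 genes higher and 5 lower. The lowest was the flagellin receptor gene *FLS2* at −0.28 (adjusted p = 0.77, edgeR). With 9 libraries edgeR's quasi-likelihood test called none of the 13, and DESeq2 and the exact test called 1 each. Limma with library quality weights called 2, all higher, where it called 113 of all 17388 genes. *CRK14*, a cysteine-rich receptor-like kinase gene, had 17 reads in each *vtc3-3* library and 13, 4, and 3 in the wild type (log2 fold change 2.18, SE 0.490, adjusted p = 0.041, edgeR). With 9 libraries its log2 fold change was 1.31 (adjusted p = 0.63, edgeR).

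The glutathione transferase genes *GSTF7* and *GSTF6*, both known to respond to salicylic acid, rose in the 8-library comparison and were high in wild-type replicate 1. *GSTF7* had normalized counts of 88.0, 16.8, and 13.6 across the wild type, compared with 39.5, 85.8, and 63.5 in *vtc3-3*. Its rise of 2.01 (SE 0.388, adjusted p = 0.017, edgeR) became 0.65 (adjusted p = 0.68, edgeR) with all libraries. For *GSTF6*, named here after its values were seen, 247 in wild-type replicate 1 exceeded the *vtc3-3* mean of 142 ± 37.2 (SD, *n*=3), and the change went from 1.13 (adjusted p = 0.0068, edgeR) to 0.17 (adjusted p = 0.87, edgeR). *XBAT34*, an ankyrin-repeat gene, changed sign. It rose by 1.43 (SE 0.318, adjusted p = 0.040, edgeR) without and had −0.21 (adjusted p = 0.89, edgeR) with wild-type replicate 1, where its normalized count was 274 compared with 37.2 and 34.4 in the other wild-type libraries. The senescence-associated gene *SAG21* showed the same order of groups, with 178 in that library, 54.6 ± 2.45 (SD, *n*=2) in the other wild-type libraries, and 116 ± 7.83 (SD, *n*=3) in *vtc3-3* (log2 fold change 1.08, adjusted p = 0.037, edgeR, and 0.27 with 9 libraries, adjusted p = 0.78).

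The promoters of 3 of these genes, those of *FRK1*, *GSTF7*, and AT2G43620, are shown as examples that hold repeats of the W box, the site bound by WRKY factors. It was searched as TTGACC or TTGACT on both strands in the 250 bases before each RefSeq gene start (TAIR10.1), and W boxes are in capitals. Of the promoters of all tested genes, 27.6% held at least 1 match, compared with 15 of the 51 higher genes (29.4%), 24 of the 69 lower genes (34.8%), and 6 of the 12 tested genes of the secreted defence list. *FRK1* has 2 matches, at chr2:8329945-8330194 on the minus strand, while *GSTF7*, at chr1:659981-660230 on the minus strand, and AT2G43620, at chr2:18095094-18095343 on the minus strand, have 3 each. *DOX1* and *PR4* held none in this window. Repeats were also present before *PRX71* (3 matches), *CRK14*, *XBAT34*, and *SAG21* (2 each), and before *GSTU1* (2), a lower gene described below.
FRK1: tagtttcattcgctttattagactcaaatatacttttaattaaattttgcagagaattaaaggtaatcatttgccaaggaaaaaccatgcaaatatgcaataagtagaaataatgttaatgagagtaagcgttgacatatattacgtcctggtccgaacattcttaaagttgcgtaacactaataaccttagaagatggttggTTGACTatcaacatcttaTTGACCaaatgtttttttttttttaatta
GSTF7: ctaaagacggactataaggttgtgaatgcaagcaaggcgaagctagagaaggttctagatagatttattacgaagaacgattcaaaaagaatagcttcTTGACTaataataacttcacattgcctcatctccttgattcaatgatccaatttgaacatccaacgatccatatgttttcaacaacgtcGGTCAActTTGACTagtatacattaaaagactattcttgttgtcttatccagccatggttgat
AT2G43620: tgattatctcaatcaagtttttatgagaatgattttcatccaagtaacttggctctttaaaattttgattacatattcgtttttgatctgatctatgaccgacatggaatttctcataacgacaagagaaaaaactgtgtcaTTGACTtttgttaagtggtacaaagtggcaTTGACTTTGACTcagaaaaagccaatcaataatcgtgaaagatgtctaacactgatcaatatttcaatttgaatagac
The motif was no more frequent among the higher than among the lower genes, and a match is not by itself a binding site.

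Genes of abscisic acid and dehydration response were mostly higher in *vtc3-3*, by small amounts. Of 31 tested members of 32, 28 were higher and 3 lower in the 8-library comparison, 4 rose, and none fell. Unadjusted p-values under 0.05 were found for 19, all higher, whereas 4.37% of all genes were higher at that level. The median log2 fold change was 0.32, compared with 0.01 over all genes tested. With 9 libraries, 22 of 30 were higher with a median of 0.12, and edgeR's quasi-likelihood test called none (9 had an unadjusted p under 0.05) while DESeq2 and the exact test each called 1. Limma with library quality weights called 3 of the 30, all higher, where it called 113 of all 17388 genes. The mean log2 CPM of the list above wild-type replicates 2 and 3 was 0.50, 0.48, and 0.31 in the *vtc3-3* libraries, 0.18 in wild-type replicate 1, and −0.33 to −0.21 in *vtc2-4*.

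*HAI1* (AT5G59220, chr5:23894404-23896619) encodes a clade A PP2C phosphatase that is induced by abscisic acid and damps its signalling. It had normalized counts of 43.4, 49.2, and 44.8 across the wild type, compared with 102, 109, and 77.3 in *vtc3-3*. The groups did not overlap and wild-type replicate 1 was not set apart, so the log2 fold change was 1.05 (SE 0.178, adjusted p = 0.0060, edgeR) with 8 libraries and 1.08 (adjusted p = 0.19, edgeR) with 9. *RD26* (AT4G27410, chr4:13707240-13709149), a dehydration-induced NAC transcription factor gene, had 57.6, 36.0, and 39.6 across the wild type, compared with 120, 95.2, and 78.6 in *vtc3-3*, a rise of 1.41 (SE 0.256, adjusted p = 0.010, edgeR). Leaving out *vtc3-3* replicate 1 raised the adjusted p to 0.054 (edgeR), and with 9 libraries *RD26* had 1.15 (adjusted p = 0.63, edgeR). The dehydrin gene *COR47* was far more abundant, with 2015 ± 77.4 (SD, *n*=2) in wild-type replicates 2 and 3 and 2537 ± 118 (SD, *n*=3) in *vtc3-3*, and rose by 0.33 (SE 0.0696, adjusted p = 0.029, edgeR). In wild-type replicate 1 it stood at 2841, above the mutant's mean, and the 9-library log2 fold change was 0.15 (adjusted p = 0.69, edgeR). The adjusted p was 0.098 without *vtc3-3* replicate 1 and 0.056 without replicate 3 (edgeR, 8-library comparison).

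*LEA7* (AT1G52690, chr1:19619745-19621534), for a late embryogenesis abundant protein of the kind that protects drying cells, had 4, 2, and 1 reads across the wild type, compared with 33, 30, and 4 in *vtc3-3*. Replicate 3 of the mutant was at the wild-type level. The fitted log2 fold change, 3.70 (SE 0.748, adjusted p = 0.024, edgeR), rested on the other libraries, since the gene failed the low-count filter without either of them. AT1G52695 on the other strand overlaps 297 bases of this gene in TAIR10.1. Of the other clade A phosphatase genes, *AHG3* had 0.32 (adjusted p = 0.092, edgeR) and *HAB1*, the lowest member of the list, had −0.17 (adjusted p = 0.69, edgeR).

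The abscisic acid-responsive element, searched as ACGTGGC or ACGTGTC on both strands in the same windows, was present in 7.59% of the promoters of all tested genes, 10 of the 31 listed genes (32.3%), 6 of the 51 higher genes (11.8%), and 2 of the 69 lower genes (2.9%). The promoters of *LEA7* (chr1:19619474-19619723, plus strand, 2 matches) and *RD26* (chr4:13709171-13709420, minus strand, 1 match) are given with these matches in capitals, and those of *HAI1* and *COR47* held none in this window.
LEA7: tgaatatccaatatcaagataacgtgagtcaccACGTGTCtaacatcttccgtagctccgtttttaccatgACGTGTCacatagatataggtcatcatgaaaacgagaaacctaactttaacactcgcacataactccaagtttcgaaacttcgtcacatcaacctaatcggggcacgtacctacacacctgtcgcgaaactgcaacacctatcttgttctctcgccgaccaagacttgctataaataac
RD26: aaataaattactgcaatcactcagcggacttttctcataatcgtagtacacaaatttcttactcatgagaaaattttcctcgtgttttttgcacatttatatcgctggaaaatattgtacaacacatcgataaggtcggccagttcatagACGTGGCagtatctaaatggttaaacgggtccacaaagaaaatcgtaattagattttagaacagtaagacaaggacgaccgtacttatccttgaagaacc
The list was made of known abscisic acid-responsive genes, so its share of matches describes the list and not the mutant.

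Genes of nitrate assimilation changed in both directions. Of 16 tested genes, 5 rose and 1 fell in the 8-library comparison, where 0.289% of all genes rose and 0.391% fell, and the list median was 0.04. *NIA1* (AT1G77760, chr1:29235803-29239445), a nitrate reductase gene, had normalized counts of 249, 616, and 508 across the wild type, compared with 815, 994, and 1044 in *vtc3-3*, and rose by 0.75 on the log2 scale (SE 0.121, adjusted p = 0.0042, edgeR). *NIR1*, the nitrite reductase gene that acts next, rose by 0.29 (SE 0.0595, adjusted p = 0.029, edgeR), from 3518 ± 20.4 (SD, *n*=2) to 4294 ± 223 (SD, *n*=3). *UPM1*, which makes the siroheme precursor that nitrite reductase needs, rose by 0.35 (adjusted p = 0.031, edgeR). With 9 libraries *NIA1*, *NIR1*, and *UPM1* had 1.06, 0.49, and 0.47, each with an adjusted p of 0.63 (edgeR).

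*WR3* (AT5G50200, chr5:20436180-20437726), the partner protein of high-affinity nitrate transporters, had normalized counts of 8.69, 20.4, and 20.9 across the wild type, compared with 60.0, 44.7, and 71.7 in *vtc3-3*. All *vtc3-3* libraries were above all wild-type libraries, and it rose 2.82-fold (SE 0.312 on the log2 scale, adjusted p = 0.029, edgeR), with a log2 fold change of 1.81 (adjusted p = 0.63, edgeR) with 9 libraries. It was not called without *vtc3-3* replicate 1 (adjusted p = 0.081) or 3 (adjusted p = 0.084, edgeR). *LBD37*, a nitrogen-responsive repressor gene, rose by 0.45 (SE 0.0739, adjusted p = 0.0053, edgeR) and had 0.51 (adjusted p = 0.63, edgeR) with 9 libraries. The plastid glutamate synthase gene *GLU1*, which acts after ammonium is formed, fell by 0.29 (SE 0.053, adjusted p = 0.011, edgeR), from 14990 ± 32.3 (SD, *n*=2) to 12290 ± 210.1 (SD, *n*=3), and stood at 6526 in wild-type replicate 1, which turned the 9-library value to 0.014 (adjusted p = 0.98, edgeR). With that library 14 of the 16 genes were higher and the median was 0.20, since the list stood at −0.75 in wild-type replicate 1 and at 0.13, 0.16, and 0.21 in *vtc3-3*. No gene of the list was then called by edgeR's quasi-likelihood test (5 had an unadjusted p under 0.05, all higher), 2 were called by DESeq2, and 1 by the exact test. Limma with library quality weights called 4 of the 16, all higher, where it called 113 of all 17388 genes. Further genes of nitrogen use, picked out after their values were seen, were the asparagine synthetase gene *ASN2* (log2 fold change 0.34), the glutamate dehydrogenase gene *GDH2* (0.81), the amino acid permease gene *AAP2* (0.89), and the cytosolic glutamine synthetase gene *GSR2* (−0.26), all called in the 8-library comparison. With 9 libraries they had 0.43, 0.99, 1.15, and −0.15 (adjusted p = 0.63, 0.63, 0.63, and 0.66, edgeR).

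Genes of dark and sugar starvation had a mean log2 CPM 0.29 to 0.77 above wild-type replicates 2 and 3 in *vtc3-3* and 0.96 to 1.71 above them in *vtc2-4*. Wild-type replicate 1 stood at 0.30 on this scale, level with *vtc3-3* replicate 3. These means include *DIN2*, described below, which had no reads in wild-type replicates 2 and 3. Of 20 tested, 17 were higher, 3 rose, and none fell in the 8-library comparison, where 0.289% of all genes rose, and the median was 0.33. With 9 libraries the median was 0.36, and edgeR's quasi-likelihood test called none (7 had an unadjusted p under 0.05, 6 of them higher), while DESeq2, the exact test, and limma with library quality weights called 2 each. The kelch F-box gene *KMD4* (AT3G59940, chr3:22142900-22144439), whose product targets cytokinin response regulators and enzymes of phenylpropanoid synthesis, had normalized counts of 275 in wild-type replicate 1, 218 ± 16.9 (SD, *n*=2) in the other wild-type libraries, 449 ± 81.6 (SD, *n*=3) in *vtc3-3*, and 886 in *vtc2-4*. It rose by 1.06 (SE 0.132, adjusted p = 3.6e-04, edgeR) and its log2 difference from *vtc2-4* was −0.96 (adjusted p = 1.7e-06, edgeR). AT5G60680 and AT2G20670, of unknown function, rose by 0.96 (adjusted p = 0.0017, edgeR) and 1.23 (adjusted p = 0.036, edgeR). With 9 libraries *KMD4*, AT5G60680, and AT2G20670 had 0.92, 0.91, and 0.93 (adjusted p = 0.40, 0.19, and 0.63, edgeR). Outside the list, *BT5*, a BTB and TAZ domain gene, and AT5G19120, an aspartyl protease family gene, rose by 1.48 (adjusted p = 0.032, edgeR) and 1.28 (adjusted p = 0.029, edgeR). With 9 libraries *BT5* and AT5G19120 had 1.18 and 1.48 (adjusted p = 0.63 for both, edgeR). The log2 difference of *BT5* from *vtc2-4* was −1.57 (adjusted p = 7.6e-06, edgeR), and AT5G19120 had a mean normalized count of 79.9 in *vtc3-3* and 270 in *vtc2-4*. The lowest listed member was *bZIP11*, the gene of a sucrose-repressed transcription factor, at −0.47 (adjusted p = 0.13, edgeR).

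Across the 51 higher genes, the direct test of *vtc3-3* against *vtc2-4* without wild-type replicate 1 called 26 as higher in *vtc3-3* and 13 as lower, and did not call 12, where 6.76% of all genes were called in either direction. Of the 69 lower genes 11 were higher than in *vtc2-4*, 11 were lower, and 47 were not called. The same *vtc3-3* libraries entered the choice of these genes and the direct test, so the first of these counts is favoured by the choice. *HAI1* was 1.42 higher in *vtc3-3* than in *vtc2-4* on the log2 scale (adjusted p = 5.7e-06, edgeR) and *WR3* was 1.58 higher (adjusted p = 5.9e-04, edgeR). *CuAO1* and *ARP9* had differences of 0.21 (adjusted p = 0.28, edgeR) and 0.09 (adjusted p = 0.74, edgeR).

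**Figure D3:**
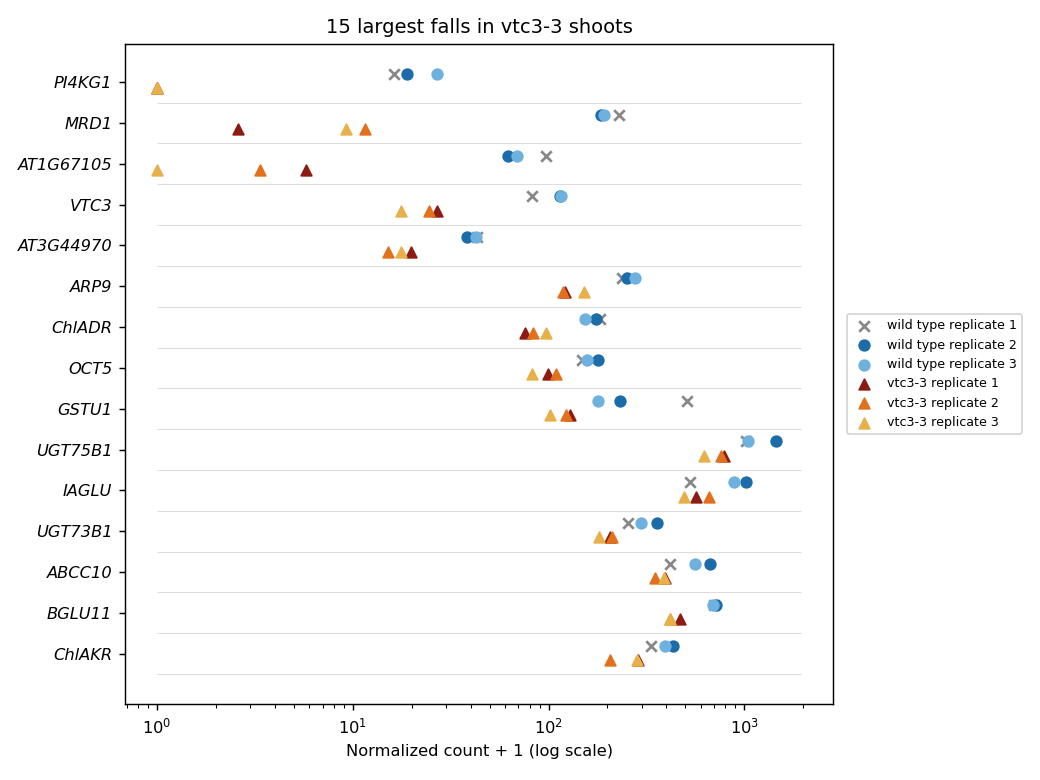
Normalized counts plus 1 (log scale) of the 15 genes with the largest falls in the 8-library comparison are plotted for each wild-type and *vtc3-3* library. *PI4KG1*, *MRD1*, AT1G67105, and *VTC3* fell by more than 2 on the log2 scale and the other 11 by 0.67 to 1.23.

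Falls were mostly modest and concerned well-expressed genes. *ARP9* (AT5G43500, chr5:17469675-17473591), an actin-related protein gene, had normalized counts of 237 in wild-type replicate 1, 264 ± 16.3 (SD, *n*=2) in the others, and 130 ± 18.1 (SD, *n*=3) in *vtc3-3*. Its fall was 1.04 (SE 0.113, adjusted p = 5.0e-05, edgeR) with 8 libraries and 0.98 (adjusted p = 0.086, edgeR) with 9. AT3G44970, a cytochrome P450 gene, fell by 1.23 (SE 0.260, adjusted p = 0.031, edgeR), with the calls lost without *vtc3-3* replicate 2 (adjusted p = 0.11) or 3 (adjusted p = 0.070, edgeR). *OCT5*, an organic cation transporter gene, fell by 0.78 (adjusted p = 0.0088, edgeR), and *BGLU11*, a beta-glucosidase gene, fell by 0.69 (SE 0.0874, adjusted p = 4.0e-04, edgeR), from 704 ± 14.3 (SD, *n*=2) to 434 ± 27.7 (SD, *n*=3). With 9 libraries AT3G44970, *OCT5*, and *BGLU11* had −1.27, −0.735, and −0.69 (adjusted p = 0.19, 0.63, and 0.37, edgeR).

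Genes of reactive carbonyl and xenobiotic detoxification were among the falls. Of 23 tested genes in the list of tau-class glutathione transferases and detoxification, 16 were lower and 7 higher in the 8-library comparison, 2 fell, and none rose, against 0.391% of all genes. Another 6 had an unadjusted p under 0.05, all lower, where 4.49% of all genes were lower at that level, and the median was −0.14. *GSTU1* (AT2G29490, chr2:12631378-12632473) had normalized counts of 510 in wild-type replicate 1, 205 ± 38.6 (SD, *n*=2) in the others, and 117 ± 14.3 (SD, *n*=3) in *vtc3-3*, a fall of 0.78 (SE 0.139, adjusted p = 0.0088, edgeR). *ChlADR* (AT3G04000), a chloroplast aldehyde reductase gene, fell by 0.96 (SE 0.139, adjusted p = 0.0016, edgeR), from 163 ± 14.6 (SD, *n*=2) to 84.6 ± 11 (SD, *n*=3). With 9 libraries *GSTU1* and *ChlADR* had −1.38 and −1.01 (adjusted p = 0.63 and 0.18, edgeR). The same list was 0.71 above the other wild-type libraries in wild-type replicate 1, on the scale of mean log2 CPM, and −0.22, −0.09, and −0.17 in *vtc3-3*. Wild-type replicates 2 and 3 themselves stood at 0.21 and −0.21, so that replicate 3 lay within the *vtc3-3* values. With 9 libraries 22 of the 23 genes were lower and the median was −0.43, while edgeR's quasi-likelihood test called none (6 had an unadjusted p under 0.05, all lower) and DESeq2 and the exact test called 1 each. Limma with library quality weights called 2 of the 23, all lower, where it called 113 of all 17388 genes. *ChlAKR*, a chloroplast aldo-keto reductase gene outside this list, fell by 0.67 (SE 0.109, adjusted p = 0.0043, edgeR). The alkenal reductase gene *AER* and a further aldo-keto reductase gene, *AKR4C8*, both named after their values were seen, each had a log2 fold change of −0.38 (adjusted p = 0.029 for both, edgeR). With 9 libraries *ChlAKR*, *AER*, and *AKR4C8* had −0.59, −0.47, and −0.37 (adjusted p = 0.63 for each, edgeR).

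Conjugating enzymes and exporters recurred among the 69 lower genes, a pattern noticed only after the values were seen and so given without a test. Over all genes 0.391% were called lower, and the families were picked because they recurred, so nothing is read from their shares. Of 91 tested UDP-glycosyltransferase genes, 7 were called lower and none higher, and the median was −0.09. *UGT75B1* (chr1:1645498-1647147) fell by 0.78, from 1252 ± 287.5 (SD, *n*=2) to 722 ± 85.2 (SD, *n*=3) normalized counts. *IAGLU*, which glucosylates the auxin indole-3-acetic acid, fell by 0.73, from 951 ± 97.2 (SD, *n*=2) to 571 ± 83.2 (SD, *n*=3). *UGT73B1* fell by 0.71, and the other 4 (*UGT74D1*, *UGT74F2*, *UGT76E11*, and *GT72B1*) by 0.44 to 0.49. In TAIR10.1, AT1G05562 overlaps *UGT75B1* over 2136 bases and AT4G34139 overlaps *UGT73B1* over 1015 bases, both on the other strand, so these counts may include antisense reads. The same holds for *KMD4* (1389 bases), *FER1* (1334 bases), and *ChlADR* (479 bases). Among ABC transporters of the multidrug resistance type, 5 of 22 tested genes were called lower (*ABCC4*, *ABCC8*, *ABCC10*, *ABCC12*, and *ABCG34*), with *ABCC10* falling by 0.70 (SE 0.0972, adjusted p = 0.0012, edgeR). Of 37 MATE efflux genes 3 were called lower, and of 110 cytochrome P450 genes 5. With 9 libraries *UGT75B1*, *IAGLU*, and *ABCC10* had log2 fold changes of −0.70, −0.50, and −0.54, each with an adjusted p of 0.63 (edgeR).

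Other lists held single called members in the 8-library comparison. *LOX2*, the chloroplast lipoxygenase gene of jasmonate synthesis, fell by 0.52 (SE 0.104, adjusted p = 0.023, edgeR), but wild-type replicates 2 and 3 themselves had 2449 and 4170 reads, and without replicate 3 the adjusted p was 0.57. With 9 libraries *LOX2* had −0.26 (adjusted p = 0.67, edgeR). Of 21 tested jasmonate genes 13 were lower, 8 were higher, and 1 was called, where 0.681% of all genes were called. *FMO_GS-OX1*, which oxidises the side chain of glucosinolates, fell by 0.46 (adjusted p = 0.038, edgeR), with 12 of 16 glucosinolate genes lower. With 9 libraries 8 of the 16 were higher and 8 lower. The mean log2 CPM of the list, relative to wild-type replicates 2 and 3, was −0.07, −0.20, and 0.07 in *vtc3-3*. Wild-type replicates 2 and 3 themselves stood at −0.17 and 0.17. The ferritin gene *FER1*, for the iron store of plastids, fell by 0.38 (adjusted p = 0.040, edgeR), from 12040 ± 324 (SD, *n*=2) to 9255 ± 1038 (SD, *n*=3). With 9 libraries *FMO_GS-OX1* and *FER1* had −0.26 and −0.43 (adjusted p = 0.63 for both, edgeR). *FER1* was also the 1 gene called with 8 libraries among 20 tested oxidative stress markers, where 0.681% of all genes were called. Of these markers 12 were higher and 8 lower, with a median of 0.06, and 4 in each direction had an unadjusted p under 0.05. Of all genes 4.37% were higher and 4.49% lower at that level. With 9 libraries 8 markers were higher and 11 lower, and limma with library quality weights called 2, all lower. No tested gene of the antenna proteins (18), the circadian clock (17), flavonoid synthesis (14), or the berberine bridge enzyme-like oxidases (8) was called by edgeR's quasi-likelihood test or DESeq2 in either comparison. The exact test called 1 of the last group. In the 8-library comparison 4, 2, 3, and 2 genes in these lists had an unadjusted p under 0.05, where 1563 of 17631 genes did.

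**Figure D4:**
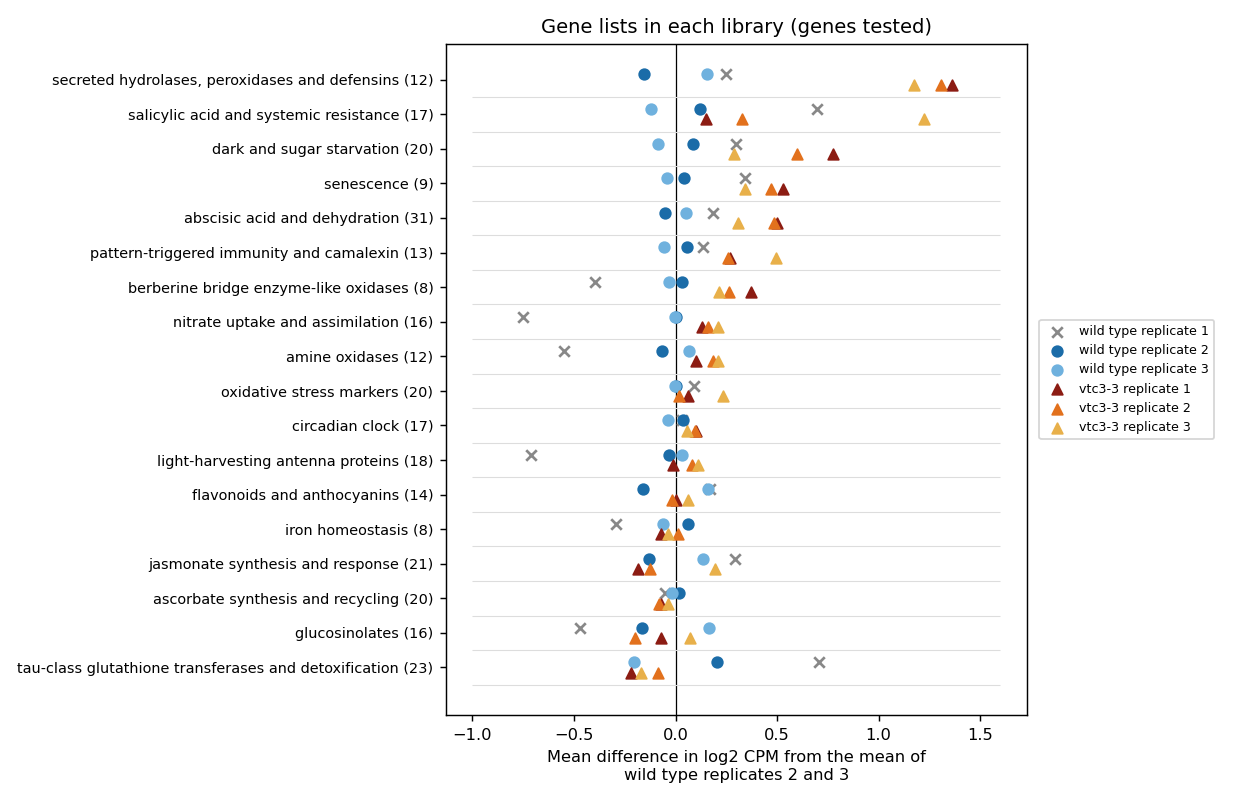
Each point is the mean, over the tested genes of a list, of the difference in log2 CPM from the mean of wild-type replicates 2 and 3, in 1 library. Secreted defence genes stand at 1.17 to 1.36 in all *vtc3-3* libraries, a mean that includes genes with few or no reads in the wild type. Salicylic acid genes stand at 1.22 in *vtc3-3* replicate 3 but 0.15 and 0.33 in replicates 1 and 2. The crosses of wild-type replicate 1 reach −0.75 for nitrate genes and 0.71 for detoxification genes.

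The *vtc3-3* replicates resembled each other across most genes. The median SD of log2 CPM between the 3 libraries was 0.121 over 17388 genes, compared with 0.113 in *vtc2-4* and 0.366 in the wild type, and it exceeded 0.5 for 599 genes in *vtc3-3*, 389 in *vtc2-4*, and 5787 in the wild type. Of the 206 such *vtc3-3* genes with a mean of at least 20 reads, replicate 3 was farthest from the middle value upward in 65 and downward in 42, replicate 2 in 8 and 40, and replicate 1 in 25 and 26.

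Salicylic acid genes had a median SD of 0.423 between the *vtc3-3* libraries, compared with 0.122 over all genes tested with 8 libraries. Of 27 listed genes 17 were tested, and all 17 had their highest *vtc3-3* level in replicate 3, whereas over all genes tested 6083 of 17631 were highest there. The list stood 1.22 above wild-type replicates 2 and 3 in mean log2 CPM in that library, 0.15 and 0.33 in replicates 1 and 2, 0.70 in wild-type replicate 1, and 0.29 to 0.86 in *vtc2-4*. *BGL2* (AT3G57260), the pathogenesis-related glucanase gene, had 11, 16, and 57 reads in *vtc3-3* and 5, 3, and 5 in the wild type. Among listed genes that were not tested, *PR1* had 11, 0, and 5 reads in *vtc3-3* and *PCR1* had 0, 2, and 20. None of the 17 genes was called by edgeR's quasi-likelihood test with or without wild-type replicate 1. Without it 6 had an unadjusted p under 0.05, all higher, where 4.37% of all genes were higher at that level. DESeq2 then called none and the exact test called 1. With it 3 had such a p, where 1084 of 17388 genes did, DESeq2 called 1, and the exact test and limma with library quality weights called none. The median log2 fold change was 0.57 without and 0.08 with wild-type replicate 1.

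A few defence-related genes outside the list were also highest in replicate 3, while *PR4* and AT4G16260, described above, were lowest there. The tyrosine aminotransferase gene *TAT3* had normalized counts of 106 in wild-type replicate 1 and 6.93 ± 6.41 (SD, *n*=2) in the others, with 15, 19, and 79 reads in *vtc3-3*. For the receptor-like kinase gene *CRK13* the *vtc3-3* libraries gave 19, 8, and 58 reads, and the WRKY factor gene *WRKY46*, added after its values were seen, had 39, 16, and 61 compared with 175, 33, and 31 in the wild type. *PCC1*, added in the same way, had 44, 24, and 87. None of these 4 genes was called, with adjusted p-values of 0.29, 0.51, 0.93, and 0.51 (edgeR, 8 libraries).

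**Figure D5:**
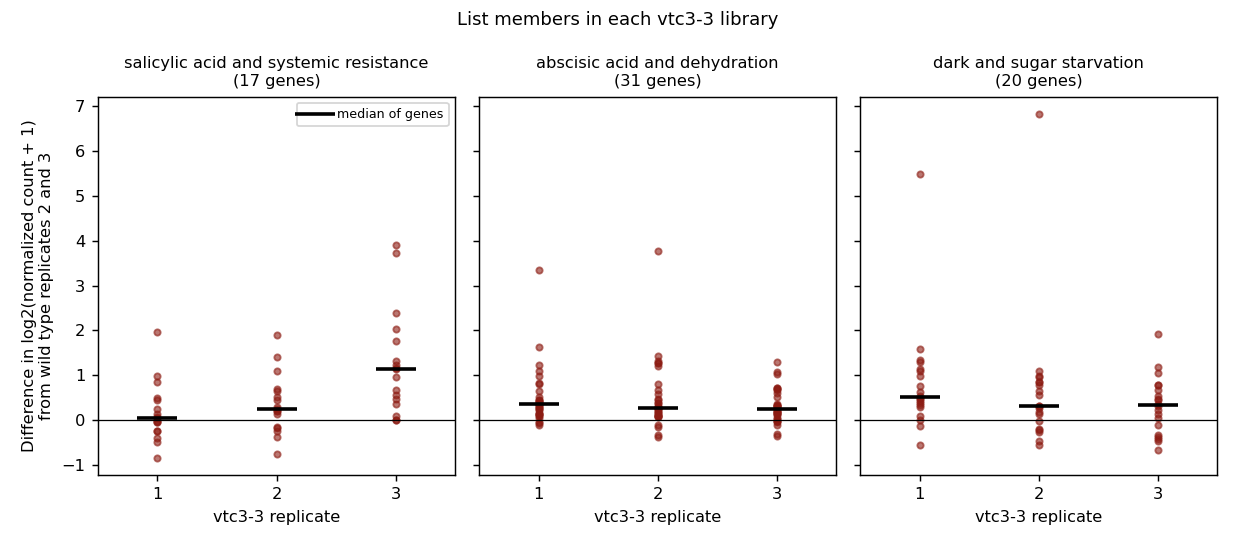
For each tested member of 3 lists, the difference in log2(normalized count + 1) from the mean of wild-type replicates 2 and 3 is plotted for the 3 *vtc3-3* libraries, with the median of the genes as a bar. The salicylic acid genes are displaced upward in replicate 3, where all 17 have their highest level, while 14 of 20 starvation genes and 15 of 31 abscisic acid genes are highest in replicate 1.

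A different set of genes was low in replicate 3. *DIN2*, a dark-induced beta-glucosidase gene, had 56, 96, and 2 reads in *vtc3-3*, 2, 0, and 0 in the wild type, and 98, 0, and 0 in *vtc2-4*. *KTI1*, a trypsin inhibitor gene, had 61, 21, and 7 reads, the late embryogenesis abundant gene AT3G02480 had 27, 36, and 5, and *BBE8*, a berberine bridge enzyme-like gene, had 24, 10, and 3. *KTI1* and AT3G02480 were named after their values were seen. These 4 genes were not called with 8 libraries, with adjusted p-values of 0.29, 0.060, 0.079, and 0.073 (edgeR). The mean of the starvation list, which includes *DIN2*, stood at 0.77, 0.60, and 0.29 above wild-type replicates 2 and 3 in *vtc3-3* replicates 1, 2, and 3. Of the 4 flower and seed markers, the floral gene *AP1* had 21, 25, and 3 reads in *vtc3-3* and 2, 5, and 4 in the wild type (log2 fold change 1.75, adjusted p = 0.40, edgeR), the seed storage gene *CRC* had 15 in *vtc3-3* replicate 1 and at most 1 elsewhere, *AG* had 0 to 9, and *OLEO1* had none. The summed normalized count of these markers was 33.1, 35.3, and 9.66 in *vtc3-3* and 4.17 to 9.61 in the wild type. The part of these markers in the values of *LEA7*, AT4G16260, and *DIN2*, which follow the same order, was not tested.

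Some of the widest spreads lay in genes with few uniquely mapped reads. *MAPR2* (chr2:10609394-10612232) had 366, 1, and 1 reads in *vtc3-3* and AT2G24945 (chr2:10609413-10612232), on the same strand of the same stretch, had 133, 321, and 291, while unique reads of *MAPR2* numbered 3, 0, and 0 and those of AT2G24945 were 0 in all 9 libraries. AT2G05230 and AT2G05250, both DNAJ family genes, had 0, 152, and 111 and 378, 93, and 91 reads, with at most 5 unique reads in any library. AT5G45430, a protein kinase gene, had 93, 799, and 63 reads, of which 6, 7, and 3 were unique. AT1G18010, a transporter gene, had 73, 20, and 0, and the unnamed genes AT1G29951, AT1G48598, and AT4G19112 had 0, 77, and 76, 2, 58, and 15, and 5, 29, and 341. How reads that match several genes were assigned was not given in the sources used here, so these counts are uncertain.

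The calls differed in how far they rested on single libraries. Of the 120 genes, 52 were called in each of the 3 fits that left out 1 *vtc3-3* library, and 13 also in both fits that left out a further wild-type library, where the remaining wild-type sample is taken to vary like the other groups. The 13 were *VTC3*, *PI4KG1*, *MRD1*, AT1G67105, *CuAO1*, *ARP9*, *ChlADR*, *BGLU11*, *KMD4*, AT5G60680, the extensin gene *EXT4* (log2 fold change 0.87), the sulphate assimilation gene *APR3* (−0.48), and the non-coding RNA gene AT4G13495 (0.80). The other called genes named above each lost the call, or could not be tested, in at least 1 of these 5 fits. None of the 5 fits held wild-type replicate 1. Of the 13 genes, only *VTC3*, *MRD1*, AT1G67105, and *CuAO1* were also called with all 9 libraries. There *EXT4*, *APR3*, and AT4G13495 had log2 fold changes of 1.27, −0.39, and 0.35 (adjusted p = 0.63 for each, edgeR). Just outside the threshold stood the subtilase-like gene AT3G14067 (−0.36, adjusted p = 0.051, edgeR) and AT3G16530 (1.58, adjusted p = 0.053, edgeR), and just inside stood AT1G07040 (−0.56, adjusted p = 0.050, edgeR) and the MATE gene AT5G52450 (−0.45, adjusted p = 0.049, edgeR).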

How the data were processed

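RNA-seq of shoots was done by the authors in 3 wild-type, 3 *vtc3-3*, and 3 *vtc2-4* libraries, from a kit that does not mark strand. Reads were mapped and counted in CLC Genomics Workbench 9.5.2, and the genome build, mapping settings, and use of strand are not given in the sources used here. The read counts that the authors deposited are unscaled integers for each gene, with exon and intron reads together. The deposited RPKM values, made by the authors from exon reads, exon length, and total gene reads, were used for checks alone. Exon lengths, exon numbers, and gene positions are annotation scores deposited by the authors. Of 171 per-library columns, 131 were not used. Another 22 columns hold means, ranges, and the authors' own fold changes, p-values, and false discovery rates from the EDGE test, and were not used.

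Low-count genes were removed with filterByExpr, and the remaining counts were normalized by TMM and fitted in edgeR 4.0.16 (R 4.3.3) by genotype, once with all libraries and once without wild-type replicate 1. Adjustment of p-values followed Benjamini and Hochberg over all genes tested. The fit was also run on simulated counts in which each gene had the same spread in all libraries. That run does not cover an outlier library such as wild-type replicate 1. SDs are over libraries, and 3 reads were the detection limit. Of 28642 gene identifiers, 28009 matched RefSeq TAIR10.1, which gave names, overlaps, and promoters.

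The comparison, the 353 genes of 18 lists, and the alternatives were chosen with earlier results of these data known. Named genes were *VTC2*, *VTC3*, and *VTC5*, all genes called with 9 libraries, the 15 largest rises and falls called without wild-type replicate 1 whose groups did not overlap, list members that were called or extreme, the 10 tested genes on each side of *VTC3*, and the 10 genes with the largest *vtc3-3* spread at a mean of at least 20 reads. Genes outside this rule were chosen after their values were seen. Alternatives were DESeq2 1.42.0, edgeR's exact test, RLE scaling, library size alone, no filter, fits of *vtc3-3* and the wild type without the other mutant, a replicate block, limma 3.58.1 with quality weights, each library left out in turn, and uniquely mapped reads.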

Additional observations from a re-analysis of the deposited data

How the results depend on the processing

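With 9 libraries, 4 genes were called by edgeR's quasi-likelihood test. DESeq2 called 20, the exact test 22, limma with library quality weights 113, and the fit with only the wild type and *vtc3-3* called 0 (458 unadjusted p-values under 0.05). Leaving out 1 library gave 1 to 120, the highest without wild-type replicate 1 and the lowest without *vtc3-3* replicate 2. Without wild-type replicate 1, the 120 became 222 with the exact test, 395 with no filter, and 33 to 170 when a further library was left out (33 without wild-type replicate 2, 54 without replicate 3, 170 without *vtc2-4* replicate 1). The other settings stayed within 1.5 times, with DESeq2 at 94, library size alone at 121, and uniquely mapped reads, chosen after seeing the data, at 155. Among the named genes called without wild-type replicate 1, the direction turned with it for *XBAT34* (−0.21) and *GLU1* (0.014) and for none under the other settings. Of 45 such genes testable with 9 libraries, only 4 were still called.

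Replicate numbers did not pair the samples, with correlations of deviations from the group means of 0.06, 0.09, and −0.03 for same-numbered libraries. With a replicate block 4 and 124 genes were called, 96 of the latter among the 120. With 2 or 3 libraries per group, changes in transcripts of few reads, such as those of *DOX1*, AT4G16260, *FRK1*, *CRK14*, and *LEA7*, are the least certain.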

Other observations

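Several called genes lay outside the lists described above and were picked out after their values were seen. *CuAO1* and *RD26*, which are list members, are named beside them. Values are from edgeR's quasi-likelihood test and, unless 9 libraries are named, from the 8-library comparison. With 9 libraries this test called none of these genes except *CuAO1*. *ADC2*, for an arginine decarboxylase that opens polyamine synthesis, was higher by 0.45 on the log2 scale (adjusted p = 0.0055). The amine oxidase gene *CuAO1* was higher by 1.91 (adjusted p = 4.8e-07, edgeR), as given above. *PAP17*, for a purple acid phosphatase, and *Hsp70-2*, for a heat shock protein, were each higher by 0.82 (adjusted p = 0.025 and 0.022). *SUS3*, for a sucrose synthase, was higher by 0.78 (adjusted p = 0.047). Of 46 tested NAC factor genes, *RD26* was called higher and *ATAF1* (−0.54) and *NAC102* (−0.64) were called lower, where 0.289% of all genes were called higher and 0.391% lower. *CP1* was lower, with a log2 fold change of −0.51 (adjusted p = 0.0055), and its normalized count of 6537 in wild-type replicate 1 compares with 2750 ± 282 (SD, *n*=2) in the other wild-type libraries. *FDH*, for formate dehydrogenase, and *NIT4*, for a nitrilase of cyanide detoxification, had log2 fold changes of −0.44 (adjusted p = 0.015) and −0.54 (adjusted p = 0.019). With 9 libraries *FDH* and *NIT4* had −0.15 and −0.48 (adjusted p = 0.80 and 0.63, edgeR). *ADC2*, *PAP17*, *Hsp70-2*, *SUS3*, and *CP1* then had 0.67, 0.70, 0.92, 1.12, and −1.06 (adjusted p = 0.63 for each, edgeR).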
